A study of Mus musculus with 8 samples.

Results

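An AKT-induced salivary gland tumour of the mouse after 3 days of rapamycin was compared with untreated tumours of the same kind, to describe the early response to the drug. The arrays were taken by their labels: 1 array of tumour treated for 3 days and 2 arrays of untreated tumour, 3 of the 8 arrays of the series. The other arrays held tumour after 14 days of rapamycin (2 arrays), normal parotid gland (2 arrays) and normal submandibular gland (1 array). Expression was measured in total RNA on one-colour Agilent whole mouse genome arrays. Both tumour groups carry the AKT induction and by label differ only in rapamycin. The promoter that drives AKT, the strain, the sex, the age, the dose of rapamycin and the number of animals behind an array are not given in the sources used here. The labels do not say that the untreated arrays came from separate animals, so p-values measure only the spread between these samples.

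AKT, a kinase downstream of PI3K, activates the kinase complex mTORC1, which promotes ribosome production, translation, lipid and nucleotide synthesis, glycolysis and entry into the cell cycle. Rapamycin binds the small protein FKBP12 (gene Fkbp1a), and the pair inhibits mTORC1. When mTORC1 is inhibited, its negative feedback on receptor and insulin signalling is relieved. The arrays measured RNA and not kinase activity.

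All values below are log2 processed signals minus the 75th percentile of their array, so that 0 is the signal at that percentile and a difference of 1 is 2-fold. A gene is called higher or lower than both untreated tumours where its day 3 value lay outside both untreated values, and its margin is the distance to the nearer of them. Values not well above background were raised to the array's floor before a margin was taken. Of 16375 genes tested, 15379 were well above background on the day 3 array or on both untreated arrays and are called measured. A gene dim on an untreated array is thus measured only if well above background at day 3, which favours counts of higher genes. In bulk tissue, fewer cells of a type and less RNA per cell cannot be told apart.

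With 1 array against 2, no permutation of the labels can give a p below 0.333. The fitted p-values come from limma, which borrows the spread of the replicated groups and assumes that the day 3 array varies like them. The untreated tumours were hybridised on the first slide and the day 3 tumour on the second, so treatment and slide cannot be told apart within this comparison. The day 14 and parotid groups span both slides, and a slide term estimated from these 2 pairs gives the values named below "with slide as a block". The parotid arrays correlated at 0.928 with each other and the day 14 arrays at 0.986. Differences between the paired samples, above all the parotid ones, enter that term and cannot be told apart from slide in it. The day 3 array also had a lower 75th percentile of signal (730 units, against 966 and 972 in the untreated tumours) and fewer spots well above background (50.9%, against 57.02% and 58.4%).

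On the day 3 array the scanner software found 791 spots of uneven brightness (non-uniform), against 30 and 51 on the untreated arrays, and 733 of them lay in a band from row 200 to row 339 of 532. Around them, dim spots gained signal. Among spots not well above background on both untreated arrays, 9.42% were well above background at day 3 where a non-uniform spot was among the 24 nearest, against 0.598% elsewhere. Genes whose spots all lay there are marked below as near uneven spots. They made up 31.0% of genes at least 2-fold above both untreated tumours, 10.5% of those at least 2-fold below and 15.6% of all measured genes.

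**Figure D1:**
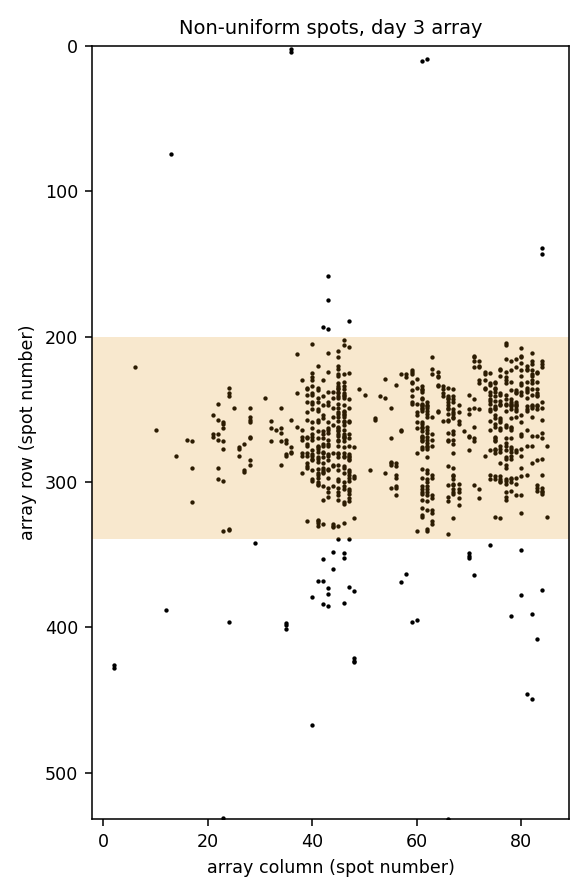
Positions (array column and row) of the 791 non-uniform spots on the day 3 array, each point 1 spot, with rows 200 to 339 shaded. The shaded band holds 92.7% of them.

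The untreated tumours also differed from each other. Xist, the RNA that silences one X chromosome in females, was at 4.42 in the day 3 tumour, against -5.45 and 4.19 in untreated tumours 1 and 2. Untreated tumour 1 may thus differ in sex from untreated tumour 2 and the day 3 tumour, and the part of sex was not tested. The 2 measured sex chromosome genes, Xist among them, had a median level of 1.02 at day 3. At day 14 their medians were -3.70 and -3.97, and the part of sex in the day 14 values was not tested either. Most acinar genes described below were lower in untreated tumour 1 than in untreated tumour 2. A value outside both untreated tumours therefore had to clear the spread between those samples.

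The day 3 tumour stayed close to untreated tumour over the whole array, correlating at 0.966 and 0.962 with untreated tumours 1 and 2, which correlated at 0.982 with each other, as a description across probes. The median difference between day 3 and the untreated mean was 0.03 over the measured genes. Its median size was 0.33, against 0.22 between the untreated tumours. Day 3 was higher than both untreated tumours for 6124 measured genes (39.8%) and lower than both for 5509 (35.8%). It was at least 2-fold beyond both for 791 genes above (5.14%) and 209 below (1.36%), and 938 genes (6.10%) differed at least 2-fold between the untreated tumours. Without spots near uneven ones these were 563 of 13733 above (4.1%) and 206 below (1.5%). Over these 13733 genes 37.4% lay above and 37.6% below both. Of the 791 genes, 143 were not well above background on either untreated array and 104 on only 1 of them. Among genes measured on all 3 tumour arrays, 3.92% lay at least 2-fold above both untreated tumours and 1.29% at least 2-fold below. At the 2-fold limit the lowest margin counted above was 1.00 and the highest not counted was also 1.00. At least 4-fold beyond both were 173 genes above and 15 below, and at least 8-fold 55 above and 0 below.

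**Figure D2:**
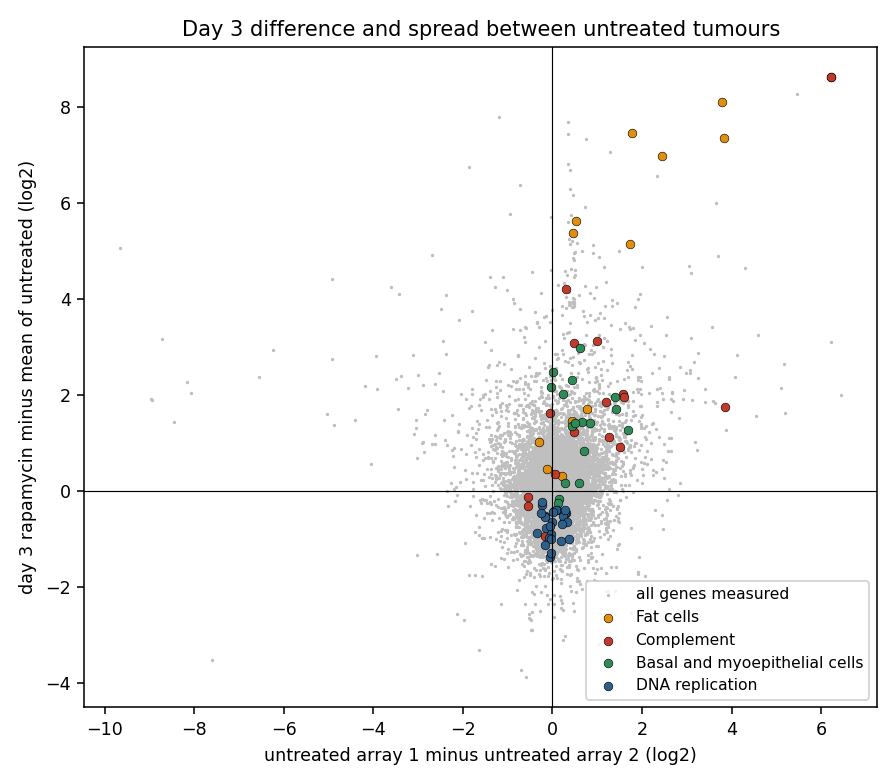
Each point is a measured gene, with the log2 difference between the untreated tumours on the horizontal axis and the log2 difference between day 3 and the untreated mean on the vertical axis. Fat cell, complement, basal or myoepithelial, and DNA replication genes are coloured. On the vertical axis all 13 fat cell genes lie above 0, the complement and basal genes lie mostly above 0, and all 28 DNA replication genes lie below 0.

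One gene of 16375 passed an adjusted p of 0.05 in limma's fit (0.00611% of genes tested), and none passed downwards (0.0%). At an unadjusted p under 0.05 limma gave 980 higher genes (5.98%) and 458 lower (2.80%). The gene was C3, the central component of complement, whose cleavage tags targets and starts inflammation. C3 was at 4.31 in the day 3 tumour, against 0.24 and -0.05 in untreated tumours 1 and 2. The day 3 value lay far above both, while the untreated values were close to each other. C3 rose by 4.21 ± 0.25 (SE), or 18.6-fold, with an adjusted p of 0.0271 in limma over 1 day 3 and 2 untreated arrays. The value is a mean over 10 spots, none near uneven ones, of a probe that the files place at chr17:56889328-56889387 (mm8). With slide as a block the difference was 4.27, but the adjusted p was 0.574. Over all alternatives the adjusted p ranged from 0.00220 to 0.574. It was 0.0566 and 0.0972 without untreated tumour 1 or 2, and 0.476 and 0.494 without day 14 tumour 1 or 2.

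The call count depended on the parotid arrays, which correlated at only 0.928 with each other. Without parotid array 1 limma called 245 genes higher and 41 lower, and without parotid array 2 it called 243 and 43. In both of these fits 239 genes were called higher and 41 lower, of which 74 higher and 6 lower had all spots near uneven ones. Genes below are said to pass without a parotid array where they did so in both fits. Both fits take the spread from the same 2 pairs of arrays, untreated and day 14. Their agreement was therefore built in and is not a second test. Other than C3 they are not called in the fit of all 8 arrays, so their values are given without the words rose or fell.

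The other complement genes were mostly above the untreated tumours at day 3. Of 16 measured members, 12 were higher than both untreated tumours and 2 lower, with a median difference of 1.68, against 0.03 over all measured genes. Of the 16, 2 were dim on at least 1 untreated array and so counted as measured only through the day 3 array. Cfb, a protease of the alternative pathway, was at 0.88 in the day 3 tumour, against -0.77 and -0.72 in untreated tumours. C4b was at 3.62, against 2.36 and 1.16, and C2 at -0.28, against -1.50 and -3.08. All 3 lay above both untreated values, with a gap of over 1 between the untreated tumours for C4b and C2. The classical pathway proteases C1ra and C1s1 differed by 3.07 and 3.12, but both lie near uneven spots. The members lower than both were chains of C1q, a product of macrophages: C1qb was at 1.46, against 2.32 and 2.48, and C1qc at 4.06, against 4.11 and 4.66. Without spots near uneven ones the complement median was 1.42 over 12 members, 8 higher and 2 lower. C3, Cfb, C1ra and C1s1 pass without a parotid array.

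Acute phase proteins and inflammatory mediators were mostly above the untreated tumours too. Of 29 measured chemokines, cytokines and NF-kB targets, 24 were higher than both untreated tumours and 3 lower, with a median difference of 1.09 (1.04 with slide as a block). Of the 29, 3 were dim on at least 1 untreated array and so counted as measured only through the day 3 array. Saa2, serum amyloid A, was at -0.45 in the day 3 tumour and not well above background in either untreated tumour (-6.16 and -6.13). That is at least 30.3-fold higher, with an adjusted p of 0.141 in limma, where the bound sets the day 3 signal against the lowest signal well above background on each untreated array. Its relatives Saa3 and Saa1 differed by 3.1 and 2.48, and since these genes are alike in sequence, a probe may bind more than one of them. Il1b, the cytokine interleukin 1 beta, was at -0.56, against -3.71 and -3.94. The neutrophil attractant Cxcl5 was at least 25.02-fold higher (adjusted p 0.0996, near uneven spots), and Cxcl1 was at -1.67, against -4.91 and -3.68. Cxcl16 was at 1.94, against 0.08 and -0.08. Icam1, an adhesion molecule for white cells, was at 1.45, against -0.05 and 0.06. The mediators were not all higher: the chemokines Ccl2, Ccl6 and Ccl7 were lower than both untreated tumours, with Ccl2, an attractant of monocytes, at 0.97, against 1.74 and 1.48.

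All 10 measured neutrophil genes, of 18 on the array, were higher than both untreated tumours, with a median difference of 1.76 and 8 of them at least 2-fold. Of the 10, 3 were dim on at least 1 untreated array and so counted as measured only through the day 3 array. Their summed level, in units of the array's 75th percentile, was 140 at day 3, against 42.5 and 38.6 in untreated tumours. Most of the day 3 sum came from Ltf and S100a9. S100a9, an abundant neutrophil calcium binding protein, was at 5.87, against 4.34 and 4.32. Csf3r, the receptor for the neutrophil growth factor, was at -2.45, against -4.71 and -3.46. Ltf and Lcn2, which secretory epithelium also makes, were at 6.12, against 4.07 and 3.88, and at 1.90, against 0.01 and 0.34. With slide as a block both turned to the other side, Ltf to -2.32. In the pairs behind the slide term, Ltf was at -2.72 and 6.08 in parotid, and at -0.73 and -0.59 at day 14. Macrophage genes went both ways, with a median difference of 0.04, 2 members at least 2-fold above both untreated tumours and 3 at least 2-fold below. Of 23 measured, 10 were higher than both untreated tumours and 8 lower, near the shares over all measured genes (39.8% and 35.8%). Among the lower ones, Cd68 was at 0.31, against 1.45 and 1.79, and Msr1, a scavenger receptor, at -1.54, against -0.30 and -0.04. The part of neutrophil content in the mediator values was not tested.

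The promoters of C3 and Saa2 are shown because C3 is the called gene and Saa2 an acute phase gene described above, both away from uneven spots. Each is the 250 bases before the gene's start, in GRCm38.p6 from RefSeq, 5′ to 3′ on the gene's strand. Capitals mark matches to TTNNGCAA on either strand, a core that C/EBP factors bind. C3 lies at chr17:57228137-57228386 (minus strand), with the match 45 to 38 bases before the start, and Saa2 at chr7:46751583-46751832 (plus strand), with the match 183 to 176 bases before it.
C3: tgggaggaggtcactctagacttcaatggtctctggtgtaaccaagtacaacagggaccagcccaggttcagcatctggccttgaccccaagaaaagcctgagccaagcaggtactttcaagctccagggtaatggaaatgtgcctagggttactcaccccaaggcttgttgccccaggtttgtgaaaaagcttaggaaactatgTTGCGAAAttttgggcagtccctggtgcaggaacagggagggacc
Saa2: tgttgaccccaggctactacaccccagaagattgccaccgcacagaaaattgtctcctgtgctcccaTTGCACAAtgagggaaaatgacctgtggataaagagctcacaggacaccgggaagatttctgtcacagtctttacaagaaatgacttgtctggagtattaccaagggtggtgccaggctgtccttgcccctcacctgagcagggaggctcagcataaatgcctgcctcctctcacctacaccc

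TTNNGCAA was found in 10.8% of 27025 such promoters. It was found in 2 of the 9 measured complement genes with a promoter in the table, and in 6 of the 21 measured chemokine, cytokine and NF-kB target genes. Outside these lists it was found in 3 of 9 fat cell genes, 3 of 24 DNA replication genes and 0 of 25 mitosis genes. Of the 7 motifs described here, 3 others follow. TTNNGNAAT, a longer C/EBP form, was in 11.7% of promoters and 3 of the 9 complement genes. The E-box CACGTG was in 6.86% and 0 of the 9 complement genes. The antioxidant form TGACNNNGC was in 11.5% of promoters and 6 of the 16 measured heat shock and oxidative stress genes with a promoter. All 7 were chosen after the list values were seen. A match describes letters and is not evidence of binding.

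Fat cell genes had the largest median difference of the 50 lists. All 13 measured members were higher than both untreated tumours, 10 of them at least 2-fold, with a median of 5.37 (4.67 with slide as a block). Of the 13, 6 were dim on at least 1 untreated array and so counted as measured only through the day 3 array. Ucp1, the heat-producing protein of brown fat mitochondria, was at 0.63 in the day 3 tumour, against -4.52 and -4.96 in untreated tumours. Adipoq, the fat hormone adiponectin, was at 2.17, against -4.03 and -7.83, the last not well above background. Plin1, which coats fat droplets, was at 0.54 and not well above background in either untreated tumour (-6.04 and -7.81), at least 60.0-fold higher with an adjusted p of 0.134 in limma. In all 3 the day 3 value lay far above both untreated tumours. Other members differed less. Fabp4, a fatty acid carrier shared with endothelium and macrophages, was at 5.80, against 4.47 and 3.70, and Cidea was at 3.43, against 3.23 and 3.03. With slide as a block the Fabp4 difference of 1.71 became 0.98. Cfd, a complement protease made by fat cells, was at 4.72, against -0.79 and -7.00, near uneven spots. The summed level of the list was 120 at day 3, against 35.3 and 24.4. Most of the day 3 sum came from Fabp4 and Cfd. Adipoq, Plin1, Plin4, Retn, Ucp1 and Car3 pass without a parotid array. At day 14 Adipoq was at 2.62 and 3.07 and Ucp1 at 3.98 and 4.42. Fat cell content was not measured apart from these genes, and its part in other differences was not tested.

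**Figure D3:**
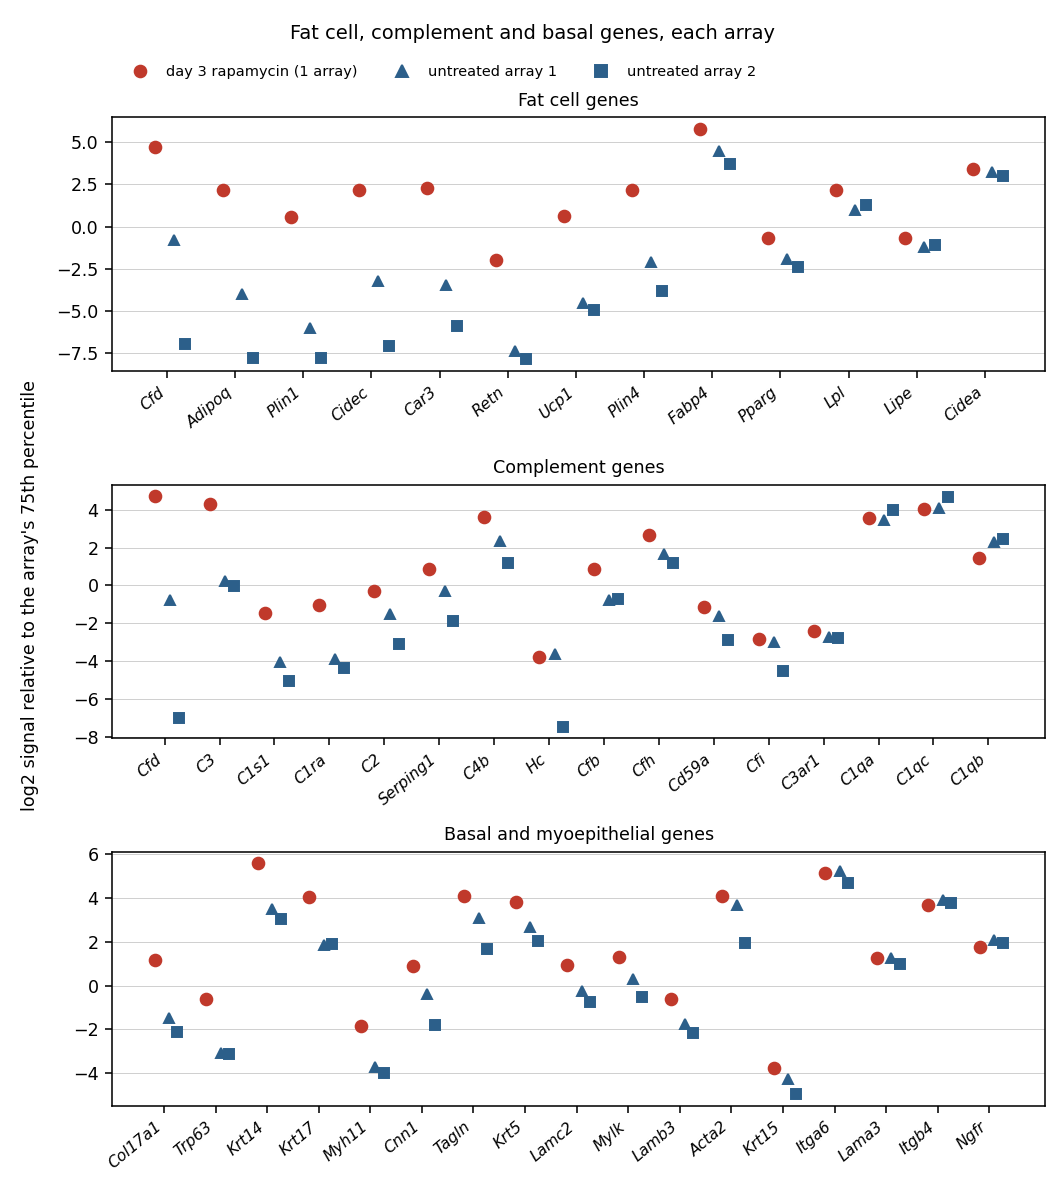
Log2 level relative to the array's 75th percentile of fat cell, complement and basal or myoepithelial genes on the day 3 array (circles), untreated tumour 1 (triangles) and untreated tumour 2 (squares). Genes run along the horizontal axis and the level up the vertical axis, and values not well above background are drawn too. Circles stand above both other symbols for every fat gene, and Adipoq and Cfd also differ widely between the untreated tumours.

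Basal and myoepithelial genes, markers of the contractile outer layer of the gland's ducts and acini, were higher at day 3 in 14 of 17 measured members and lower in 2, with a median of 1.42. The median was 0.63 with slide as a block, and their summed level was 174, against 105 and 69.8. Trp63, the transcription factor of basal cells, was at -0.61, against -3.08 and -3.10. The basal keratin Krt14 was at 5.56, against 3.47 and 3.04, and Col17a1, an anchoring collagen, at 1.18, against -1.48 and -2.10. The untreated values nearly coincided for Trp63, and the day 3 tumour lay apart from both in all 3 genes. Krt17 was at 4.03, against 1.86 and 1.90. With slide as a block the differences of Krt14 and Krt17, 2.31 and 2.16, became 1.36 and 1.14. Trp63, Krt14, Krt17, Col17a1 and Myh11 pass without a parotid array. The integrin chains Itga6 and Itgb4, also basal, showed no such difference, Itgb4 being at 3.65, against 3.90 and 3.75.

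Among 21 measured squamous genes, 12 were higher than both untreated tumours and 5 lower, with a median of 0.24. The 7 that were at least 2-fold higher included the stress keratin Krt16, at 4.11, against 2.45 and 2.19, and the cornified envelope genes Cnfn and Sprr2d, which differed by 2.30 and 2.28. Late differentiation genes differed little: Krt10 was at 0.26, against 0.02 and 0.22, and Lor at 0.06, against -0.08 and -0.27. Of 18 measured secreted tumour products, 11 were higher and 4 lower. Ceruloplasmin (Cp), a copper oxidase of the acute phase, was at 2.34, against -1.35 and -1.01, a difference of 3.52 ± 0.37 (SE) with an adjusted p of 0.0900 in limma over 1 and 2 arrays.

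Cell cycle genes were lower at day 3 without exception among the measured members of both lists. All 28 DNA replication genes lay below both untreated tumours, with differences from -1.39 to -0.24 and a median of -0.65. All 30 mitosis genes did so too, with differences from -1.1 to -0.23 and a median of -0.57. The untreated tumours hardly differed in either list, with medians of -0.02 and 0.02 between them. Only 3 replication genes and 1 mitosis gene were at least 2-fold below both, and none was called. With slide as a block the replication median was -0.37, while the mitosis median turned to 0.09, so the mitosis difference cannot be told apart from slide.

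Mcm5, a subunit of the replicative helicase, was at 2.64 in the day 3 tumour, against 4.0 and 4.06 in untreated tumours, and it passes without a parotid array, but its difference of -1.39 became -0.40 with slide as a block. Gins2, a helicase cofactor, was at -0.29, against 0.98 and 1.01. Both lay well under untreated values that nearly coincided. Top2a, a topoisomerase of dividing cells, was at 0.34, against 1.43 and 1.45, and the mitotic kinase Cdk1 at 1.1, against 2.08 and 2.20. With slide as a block the Cdk1 difference of -1.04 became -0.02. The widely used proliferation marker Mki67 differed little, at 4.91, against 5.23 and 5.22. Of the regulators of entry into the cycle, Ccne2 (cyclin E2) was at -3.04, against -2.03 and -1.95, and Cdk4 at 2.12, against 3.05 and 2.97. Ccnd1 (cyclin D1) was at 2.72, between 2.95 and 2.47. Over the 20 measured G1 genes 9 were higher than both untreated tumours and 6 lower, near the shares over all measured genes (39.8% and 35.8%). Prim2, a primase subunit outside the list that was picked after its value was seen, went the other way, at 0.95, against -3.74 and -2.73.

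**Figure D4:**
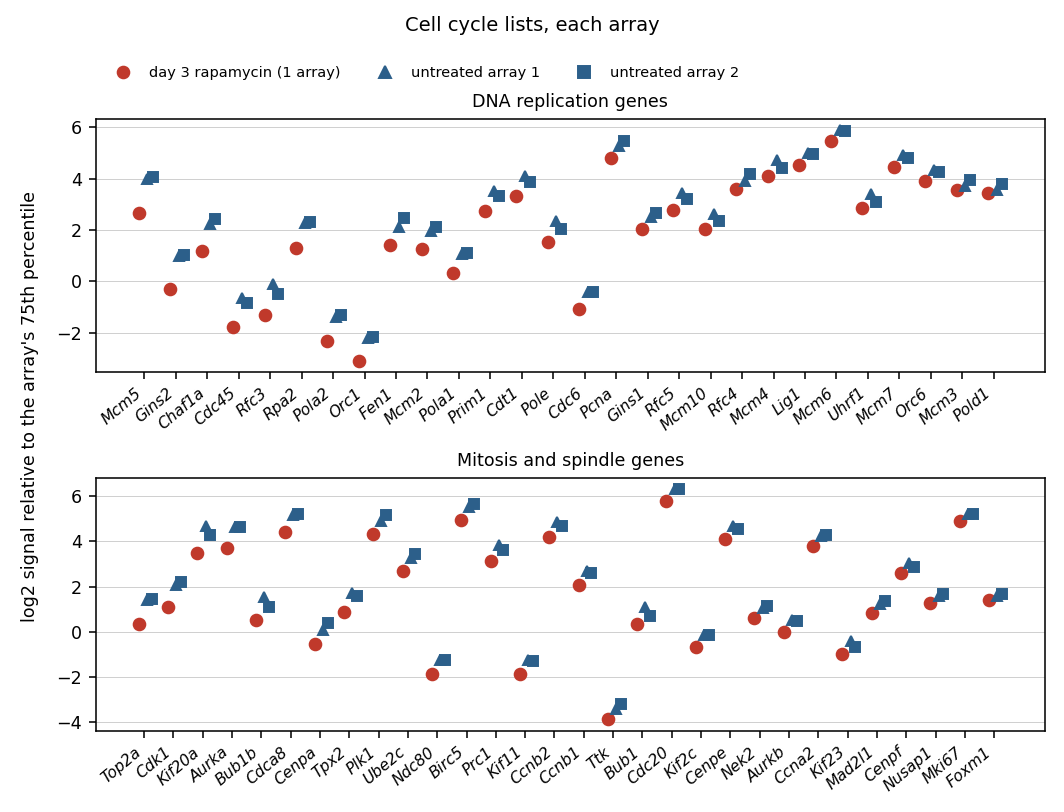
Log2 level relative to the array's 75th percentile of DNA replication and mitosis genes on the day 3 array (circles), untreated tumour 1 (triangles) and untreated tumour 2 (squares). Genes run along the horizontal axis and the level up the vertical axis. Every circle lies below both other symbols, which nearly coincide for genes such as Mcm5 and Top2a.

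The promoters of Mcm5, Mcm6 and Cdc6, the loader of the helicase, are shown because replication genes lay on the same side together. Mcm6 was at 5.44 in the day 3 tumour, against 5.88 and 5.85, and Cdc6 at -1.07, against -0.43 and -0.42. Capitals mark E2F forms (TTTGGCGC, TTTCGCGC, TTTCCCGC or TTTGCCGC) and the CCAAT form CCAATC, each on either strand, in the 250 bases before the start in GRCm38.p6 from RefSeq. Mcm5 lies at chr8:75109259-75109508 (plus strand), Mcm6 at chr1:128359706-128359955 (minus strand) and Cdc6 at chr11:98907901-98908150 (plus strand). In Mcm5 overlapping E2F matches span 153 to 142 bases before the start and CCAATC lies at 77 to 72. In Mcm6 overlapping E2F matches span 110 to 99 bases before the start, another lies at 47 to 40 and the CCAAT form at 58 to 53.
Mcm5: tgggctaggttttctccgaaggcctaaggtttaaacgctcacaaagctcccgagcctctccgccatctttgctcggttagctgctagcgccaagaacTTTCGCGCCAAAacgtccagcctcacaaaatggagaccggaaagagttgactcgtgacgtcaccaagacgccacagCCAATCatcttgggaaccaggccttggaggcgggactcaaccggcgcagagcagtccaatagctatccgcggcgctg
Mcm6: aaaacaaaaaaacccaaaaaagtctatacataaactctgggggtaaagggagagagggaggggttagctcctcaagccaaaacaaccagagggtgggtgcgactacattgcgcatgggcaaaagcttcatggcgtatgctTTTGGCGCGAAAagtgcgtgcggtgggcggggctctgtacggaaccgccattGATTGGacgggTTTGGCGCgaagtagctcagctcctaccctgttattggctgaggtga
Cdc6: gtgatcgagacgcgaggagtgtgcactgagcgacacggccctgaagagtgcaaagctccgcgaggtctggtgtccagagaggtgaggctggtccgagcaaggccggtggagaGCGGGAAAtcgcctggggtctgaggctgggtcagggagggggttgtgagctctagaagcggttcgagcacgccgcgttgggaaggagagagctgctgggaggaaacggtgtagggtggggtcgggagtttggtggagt

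An E2F form was found in 8 of the 24 replication genes with a promoter in the table and in 2.16% of all 27025 promoters. It was found in 1 of 25 mitosis genes and in 4 of 26 ribosome biogenesis genes. CCAATC was found in 14 of those 24 replication genes, in 15 of the 25 mitosis genes and in 16.6% of all promoters. The form TTTGAA, part of the element known from G2 and M phase genes, was found in 9 of the 25 mitosis genes and in 18.3% of all promoters.

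Genes of biosynthesis, which mTORC1 promotes, were mostly lower at day 3 by less than 2-fold. Of 31 measured ribosome biogenesis genes, 27 were lower than both untreated tumours and 2 higher, with a median of -0.42 (-0.54 with slide as a block). Rrp12, a ribosome maturation factor, was at -2.06, against -1.06 and -0.40, and Utp20 at 0.92, against 1.87 and 1.98. The structural ribosomal proteins did not share this: 35 of 54 were higher than both untreated tumours and 9 lower, with a median of 0.26 that became -0.03 with slide as a block. Of 20 aminoacyl-tRNA synthetases, 15 were lower and 2 higher, with a median of -0.37, and of 27 proteasome subunits and regulators, 25 were lower and 1 higher, with a median of -0.31. Neither median turned with slide as a block, where they became -0.65 and -0.57.

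Nucleotide and pentose phosphate genes were lower than both untreated tumours in 19 of 21 members and higher in 1, with a median of -0.59. Gart, an enzyme of purine synthesis, was at 0.05, against 1.16 and 1.56, and Mthfd1, which supplies one-carbon units to it, at 1.97, against 2.86 and 2.99. Among 29 glycolysis and hypoxia genes 16 were lower, 1 was higher and 12 lay between the untreated tumours, with a median of -0.46. Pkm, the pyruvate kinase gene, was at 3.97, against 5.0 and 5.11, and Car9, a hypoxia-induced carbonic anhydrase, at -0.06, against 1.11 and 1.32. Other glycolytic genes lay close to untreated, such as Ldha at 6.72, against 6.68 and 7.01. Sterol and fatty acid synthesis genes were lower in 22 of 35 members and higher in 5, with a median of -0.29. The lower ones included Fdps of the sterol branch, at 2.32, against 3.35 and 3.63, and the fatty acid desaturase Fads1, at -0.84, against 0.58 and 0.31. Fasn, the fatty acid synthase, was at 7.56, against 7.24 and 7.48.

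Of 20 measured heat shock and oxidative stress genes, 16 were lower and 1 higher, with a median of -0.52 (-0.88 with slide as a block). Hmox1, haem oxygenase, was at 2.78, against 4.25 and 4.76, and Gpx2, a glutathione peroxidase of epithelium, at 5.6, against 7.09 and 7.03. Both pass without a parotid array, and their adjusted p in the fit of all 8 arrays was 0.410 and 0.594. At day 14 Hmox1 was at 1.24 and 1.49 and Gpx2 at 1.34 and 1.47.

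**Figure D5:**
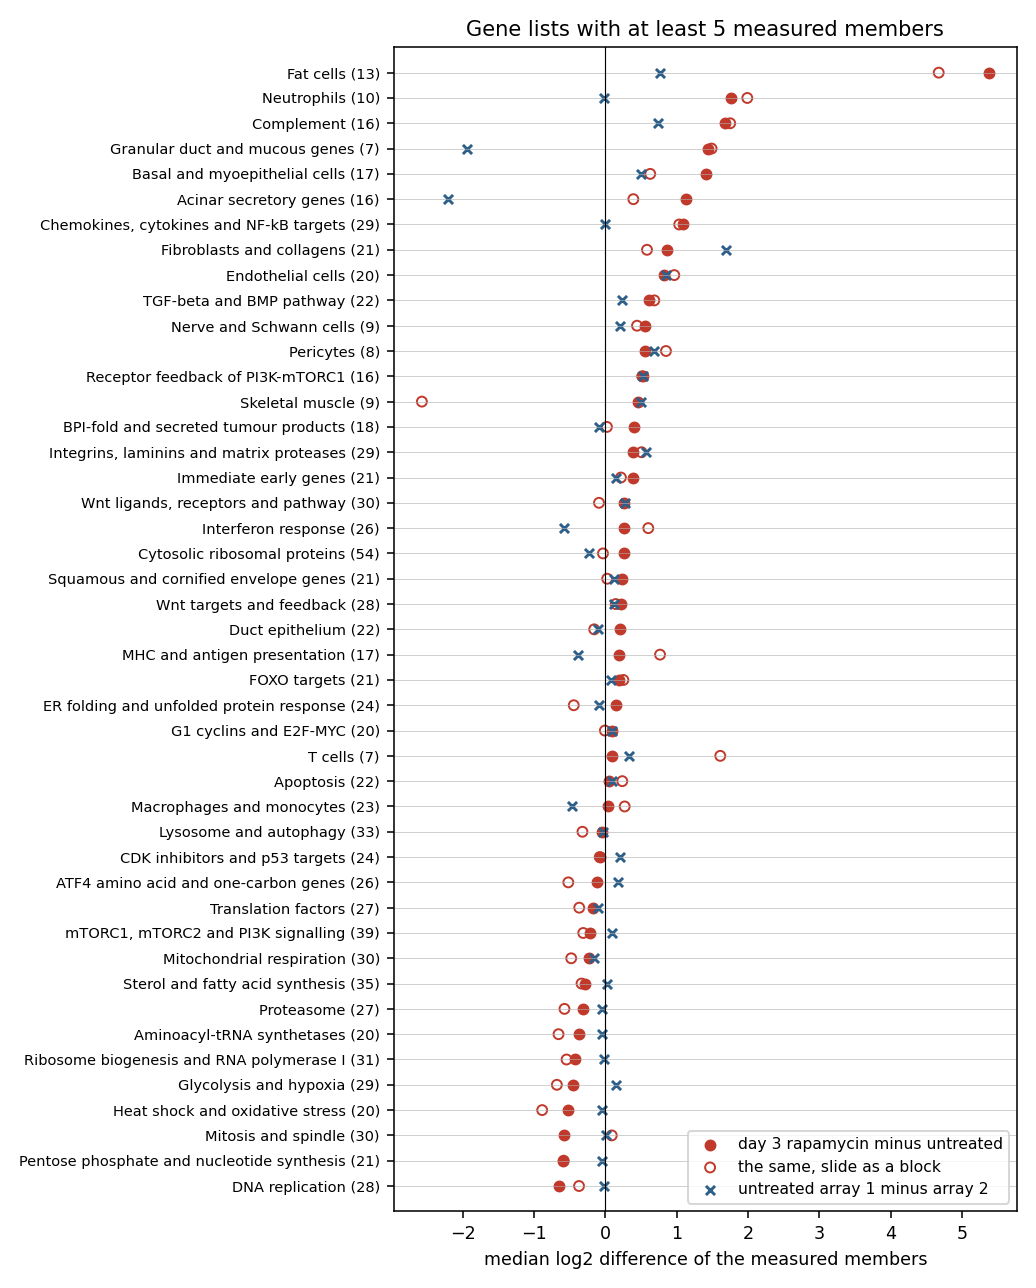
Median log2 difference of each gene list with at least 5 measured members, as day 3 minus the untreated mean (filled circles), the same with slide as a block (open circles) and untreated tumour 1 minus 2 (crosses). Fat cells stand at 5.37, complement at 1.68, and DNA replication at -0.65, while mitosis moves to 0.09 with slide as a block.

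The genes of the pathway that rapamycin acts on differed little themselves. Of 39 measured genes of mTORC1, mTORC2 and PI3K signalling, 23 were lower than both untreated tumours and 11 higher, with a median of -0.21, and none was at least 2-fold beyond both. Mtor was at -0.60 in the day 3 tumour, against -0.58 and -0.59. Akt1 was at 4.64, against 4.78 and 4.97, and Fkbp1a, the rapamycin binder, at 0.91, against 1.59 and 1.32. Eif4ebp2, a translation repressor that mTORC1 inactivates, was at 2.05, against 2.98 and 3.00. Of 16 receptor feedback genes, 10 were higher and 2 lower, with a median of 0.52, which is as far as the untreated tumours differed from each other (0.53). Egfr was at 0.33, against -1.31 and -2.12, and Irs1, the insulin receptor substrate, at 2.69, against 2.28 and 1.66 (near uneven spots). Trib3, an AKT-binding protein of the stress response, was at -0.08, against 1.07 and 0.92. FOXO targets, which AKT represses through FOXO, were higher in 14 of 21 and lower in 4, with a median of 0.19, among them Pdk4, at 1.13, against -0.07 and -0.50.

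Immediate early genes were higher in 16 of 21 measured members and lower in 1, with a median of 0.39. Ccn1, a matrix signal, was at 1.12, against 0.16 and -0.60, and Myc at 3.46, against 2.66 and 2.54. Wnt targets were higher in 16 of 28 and lower in 3, with a median of 0.22. Dkk4, a secreted Wnt inhibitor, was at 0.65, against -0.86 and -0.94 (near uneven spots), while Axin2 lay between the untreated tumours, at -1.36, against -2.50 and -0.30. Casp4, an inflammatory caspase, was at 1.02, against -1.57 and -1.21, and passes without a parotid array.

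The labelled tissue was checked against epithelial markers. Epcam was at 3.47 in the day 3 tumour, against 3.75 and 3.47, Cdh1 at 4.60, against 4.30 and 4.58, Krt8 at 8.14, against 7.66 and 8.33, and Krt18 at 8.25, against 7.71 and 8.16. Epithelium was thus present on all 3 arrays at like levels of these genes. Acinar secretory genes, such as Amy1 for amylase, at 2.54, against -3.83 and 5.12, lay mostly between the untreated tumours (11 of 16 measured). Endothelial genes were higher than both in 18 of 20 and lower in 0, with a median of 0.83, which is as far as the untreated tumours differed from each other (0.85). Vwf, the endothelial clotting protein, was at 0.34, against -0.65 and -1.98, and its difference of 1.66 became 0.73 with slide as a block. Fibroblast genes were higher in 10 of 21, where 39.8% of all measured genes were higher, and lay between in 11. Col1a1 was at 5.40, against 5.35 and 3.63. Without untreated tumour 2 the fibroblast median of 0.87 became -0.12. The globin genes Hbb-bt and Hba-a1 were lower than both, Hbb-bt at 3.46, against 4.47 and 5.27, but the Hbb-bt difference of -1.42 became -0.24 with slide as a block.

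Interferon response genes were higher in 12 of 26 measured members and lower in 2, with a median of 0.27. Over all measured genes 39.8% were higher and 35.8% lower. Without untreated tumour 1 that median was -0.00056, and the untreated tumours differed from each other by a median of -0.58. Among antigen presentation genes, the class II chaperone Cd74 was at 3.75, against 1.66 and 2.16, and passes without a parotid array. S100b, a calcium binding protein of Schwann cells and fat, was at 2.45, against 0.29 and -0.28, while the Schwann cell genes Mbp and Sox10 lay near untreated (Sox10 at 4.77, against 4.58 and 4.69).

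The widest margins outside the lists belonged to a secreted phospholipase, Pla2g2a, and a urinary protein, Mup1. Pla2g2a was at 1.77 in the day 3 tumour and not well above background in either untreated tumour (-5.18 and -5.93), at least 141-fold higher with an adjusted p of 0.0634 in limma. On the day 14 arrays Pla2g2a was at -4.73 and -5.13. Mup1 was at 1.41, against -6.98 and -5.79, at least 109.6-fold higher (adjusted p 0.0543), and at 5.86 and 5.53 at day 14, with a probe that may also bind other members of its near-identical family. Ifi202b, an interferon-inducible DNA-binding protein, was at 0.36, against -7.32 and -5.46, and at -5.32 and -3.72 at day 14. Pla2g2a and Ifi202b are known to differ between inbred mouse strains. The strain of each animal is not given in the sources used here, and its part was not tested. Hp (haptoglobin, an acute phase protein) was at 5.95, against 0.55 and -1.78, near uneven spots, and its difference of 6.57 became 2.34 with slide as a block. Chil1 and Crygd also lie near uneven spots.

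The lower side held smaller margins, none called in the fit of all 8 arrays. Cda, cytidine deaminase, was at -2.43 in the day 3 tumour, against 0.31 and -0.16, and Gls2, the liver-type glutaminase, at -2.89, against -0.33 and -0.78. Epop, a chromatin adaptor, was at 0.91, against 2.90 and 3.16, and Pf4, a chemokine of platelets, at -0.35, against 1.44 and 1.35. Each lay below both untreated tumours by more than 2-fold. Pank3, a kinase of coenzyme A synthesis, was not well above background at day 3 (-4.16, against -1.79 and -1.97), at least 4.40-fold lower with an adjusted p of 0.201 in limma. The macrophage receptor Marco was at -3.09, against -0.60 and 1.03, near uneven spots, and its difference of -3.31 became -1.37 with slide as a block. The probes of Cd38, Rinl and Cep76 disagreed, those of Cd38 giving -3.03 and 1.81, so no direction is given for these genes.

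Day 14 shares its untreated arrays with day 3, so its values are given only side by side. Mcm5 was at 2.64 at day 3, at -0.21 and -0.35 at day 14, and at 4.0 and 4.06 in untreated tumours. C3 was at 4.31 at day 3, at 5.85 and 5.74 at day 14, and at 0.24 and -0.05 untreated. In both genes the day 3 value lay between the others. Not every gene was ordered so: Saa2 was at -0.45 at day 3 and at -5.49 and -4.78 at day 14, and Il1b at -0.56 at day 3 and at -2.99 and -3.05 at day 14. For these the day 3 tumour alone stood high. The median level of the acinar list was -0.10 at day 3, against 8.68 and 8.89 at day 14.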

How the data were processed

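Total RNA (300 ng, per the labels) of 8 samples was labelled in one colour. The authors deposited spot intensities that, per the file headers, Feature Extraction 10.7.3.1 had background-subtracted and spatially detrended, without scaling between arrays. A table of log2 values that the authors deposited, with its normalization not given in the sources used here, was an alternative only. Its columns have medians of 5.52 to 5.57.

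Each intensity was taken as log2 minus the array's 75th percentile. Control spots, uneven spots and outliers did not enter. A probe was used if 1 or more groups had it well above background on each of their arrays, and a gene took its brightest probe, which gave 16375 genes. A gene's values count as well above background as that probe does. Of 41174 probes, 23374 were named through RefSeq accessions, 6733 through symbols and 2919 through synonyms, and 8148 kept the file's name. limma 3.58.1 (R 4.3.3) fitted 5 group means over all 8 arrays with an intensity trend, with 3 degrees of freedom left and 3.28 added by the prior. p-values are two-sided and Benjamini-Hochberg adjusted over all genes. On simulated data of 16375 genes this fit called 0%, 18%, 32% and 74% of genes shifted by 1, 2, 3 and 4 on the log2 scale for day 3 against untreated tumour, and 0.0124% of unshifted ones. The number of arrays limits the precision.

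The 50 gene lists and the genes were chosen with earlier results of these data known. The genes named by rule were the 12 widest on each side with a gene name that is not a clone's, called ones first, the 2 members of each list with the widest margin, and a short list of pathway genes. Others are named as examples of their list. Some genes that the rule names are not reported here. Alternatives changed the scaling, background correction, filters, trend, slide term, spots, probes, arrays and margin.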

Additional observations from a re-analysis of the deposited data

How the results depend on the processing

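The 1 gene called higher by limma became 6 with quantile normalization, 5 with normexp correction and 2 with the deposited log2 values. The count was 2 with no intensity trend, C3 not among them (adjusted p 0.0574 in limma), and 29 with no filter on dim probes. The count was 0 with slide as a fixed block or with only the day 3 and untreated tumour arrays. Leaving out 1 array at a time gave 0 to 245 genes called higher and 0 to 43 lower, against 1 and 0. The high counts came without a parotid array. Counts were 0 without untreated tumour 2 or either day 14 array, and without untreated tumour 1 the 1 call was not C3. Of measured genes, 5.14% and 1.36% were at least 2-fold above and below both untreated tumours. The shares were 1.34% and 0.663% with normexp correction, 10.703% and 6.16% at a 1.5-fold margin and 1.12% and 0.0975% at 4-fold. With genes well above background on all arrays 2.77% lay above. Without untreated tumour 1 or 2 the shares above were 9.201% and 7.31%, and those below 3.01% and 2.42%. Of 71 named genes beyond 2-fold, the difference changed sign for Rinl with the filter on all arrays (0.48) and for Ltf (-2.32), Myl1 (-0.19) and Lck (0.78) with slide as a fixed block. The cause was not tested. Normexp correction shrank 31 of them over 1.5 times, slide as a fixed block 11, and the deposited log2 values 10 of the 70 with a value there. No paired analysis was possible because the day 3 group has 1 array with no replicate number. Dim genes have only bounds.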
